A study of Mus musculus with 2 samples.

Results

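The genes described here belong to the ubiquitin-proteasome system: proteasome subunits and their partners, ubiquitin-activating and ubiquitin-conjugating enzymes, deubiquitinases, and ubiquitin ligases with their scaffolds and adaptors. They were chosen by symbol, as the genes whose names start with Psma to Psmg, Ube2, Uba, Usp, Uch, Otu, Fbx, Cul, Klhl, Cops, Skp1, Skp2, Nedd4, Nedd8, Herc, Ubr or Rnf (the last without Rnf2), a rule that uses no measured value. This gave 178 genes of the 8102 that could be named on the array. They were compared between EB cells at day 4 and ES cells at day 0, both from mouse, with 1 bead array for each. Total RNA labelled with biotin was hybridised. The labels do not spell out the abbreviations, give no strain, line or culture conditions and name no treatment. ES usually stands for embryonic stem cells. EB usually stands for embryoid bodies, which are clumps of differentiating stem cells.

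In this system ubiquitin, a small protein, is activated by one enzyme, passed to a conjugating enzyme and attached to a target with the help of a ligase, which chooses the target. Chains of ubiquitin can send the target to the proteasome, a barrel-shaped core protease capped by a regulatory particle that unfolds the target, and deubiquitinases cut the chains off again. In embryonic stem cells the system is known to set the lifetime of pluripotency factors and cell cycle regulators, and proteasome activity has been described as high in such cells.

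Signal on the array is the mean fluorescence intensity over the beads of a probe, quantile normalized here over both arrays. The error beside a log2 difference, EB minus ES, is a standard error over beads within the arrays and holds no variation between cultures. A signal floor of 230.0 corresponds to a detection score of 0.99 in the EB array. There was 1 sample per group, so no test or p-value was possible, and culture, array and group cannot be told apart. A median of 37 beads in EB and 38 beads in ES lay behind each signal. In these bulk samples fewer cells of a type and less RNA per cell cannot be told apart either.

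The sample labels were set against marker genes. All 8 named markers of undifferentiated ES cells were lower in EB, with log2 differences between -5.18 and -1.27, among them Klf2, Nanog and Zfp42, and 4 of them lay below the floor in EB. All 4 named streak and mesoderm markers were higher, with log2 differences between 1.98 and 3.51, and so were both primitive blood markers (1.22 and 2.10) and the 1 endoderm marker (1.39). Of these 7, only Fst and Eomes lay above the floor in ES. Of 4 fibroblast markers Fbln2 was higher (2.59), Col1a1 was lower (-1.37) and Col1a2 and Col3a1 lay below the floor in both arrays. The part of other cell types in the values below was not tested.

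Most transcripts of the ubiquitin-proteasome system above the floor differed little between EB and ES, as did most other named genes. Of the 178 genes 120 lay above the floor in at least 1 array, 109 of them in both, 8 in EB alone and 3 in ES alone, while 58 lay below it in both and have no measured difference. Of the 120, 1 was at least 2-fold higher in EB (Klhl6), which is 0.833% against 3.72% of all 3867 named genes above the floor. A further 2 were at least 2-fold lower (Klhl13 and Nedd4l), which is 1.67% against 5.35%. Both shares were below the background, but counts of 1 and 2 genes are too few to set the group apart from the array. At a 1.5-fold limit on the normalized signals 6 genes were higher (5% against 12.4%) and 10 lower (8.33% against 12%). For Usp13 among the higher and Usp45 among the lower the dimmer signal lay below the floor, and their bounds against it do not reach 1.5-fold.

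The median log2 difference was 0.0017 over the 120 genes, with quartiles of -0.22 and 0.27, against a median of 0.06 and quartiles of -0.26 and 0.35 over all named genes. There were 61 positive and 59 negative differences, against 55 and 65 without normalization between the arrays. For 45 of the 120 (37.5%) the difference was within 1.96 bead-level standard errors of 0, against 31.1% of all named genes. In all, 104 of the 120 (86.7%) stayed under 1.5-fold either way, against 75.3% of the 3747 other named genes. Dim probes sit on unsubtracted background, which can shrink differences. The genes over 4 times the floor in both arrays were therefore also taken alone, 54 of the 120 and 1463 of the 3867 named genes. Above this cut named genes had smaller differences, with a median absolute log2 difference of 0.25 against 0.31 for all named genes. The cut also drops genes bright in only 1 array, among them Klhl6, Klhl13 and Nedd4l, which by itself removes large differences. For the ubiquitin-proteasome genes the median absolute differences were 0.22 over the 54 and 0.25 over the 120. Above the cut the gap between the sets in median size was thus small, but they were not matched for brightness beyond it. None of the 54 passed 2-fold, where 1.98% of the 1463 named genes of that brightness were higher and 2.26% lower, so a count of 0 among 54 is near the background. At 1.5-fold 3 were lower (5.56% against 7.38%) and none higher (against 8.82%), and the median was -0.09 against 0.04.

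**Figure D1:**
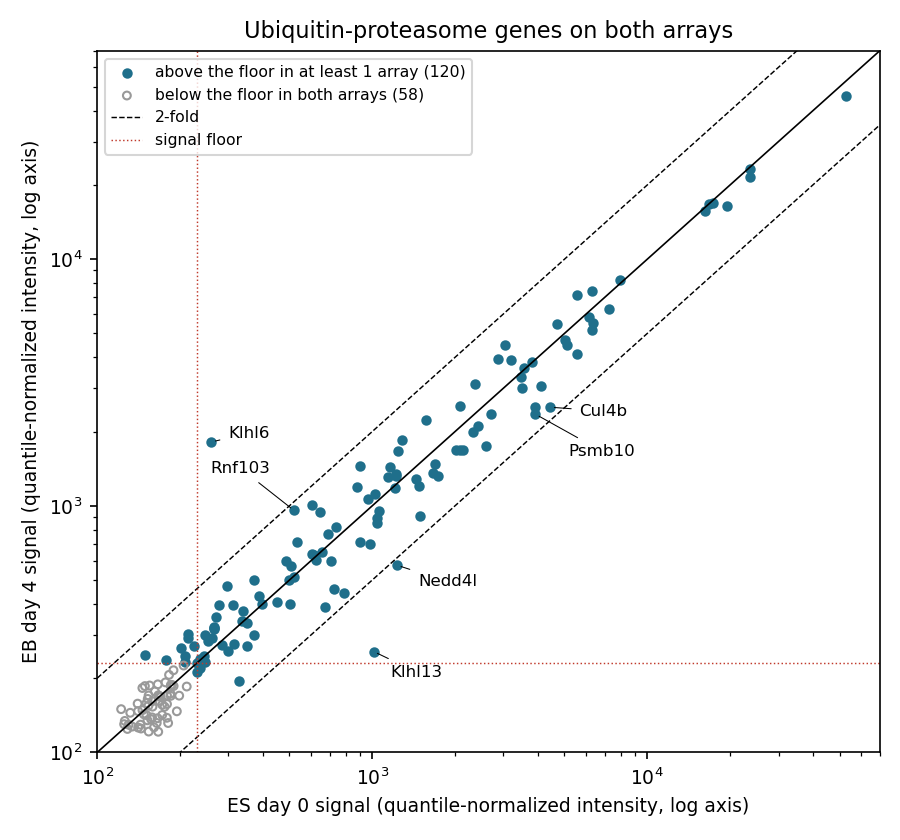
Signal of each of the 178 genes in EB day 4 (vertical) and ES day 0 (horizontal), both as quantile-normalized intensity on log axes. Filled points are the 120 genes above the signal floor (dotted lines) in at least 1 array, open points the 58 below it in both, and dashed lines mark 2-fold. Klhl6 stands above the upper dashed line, and Klhl13 and Nedd4l below the lower one.

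**Figure D2:**
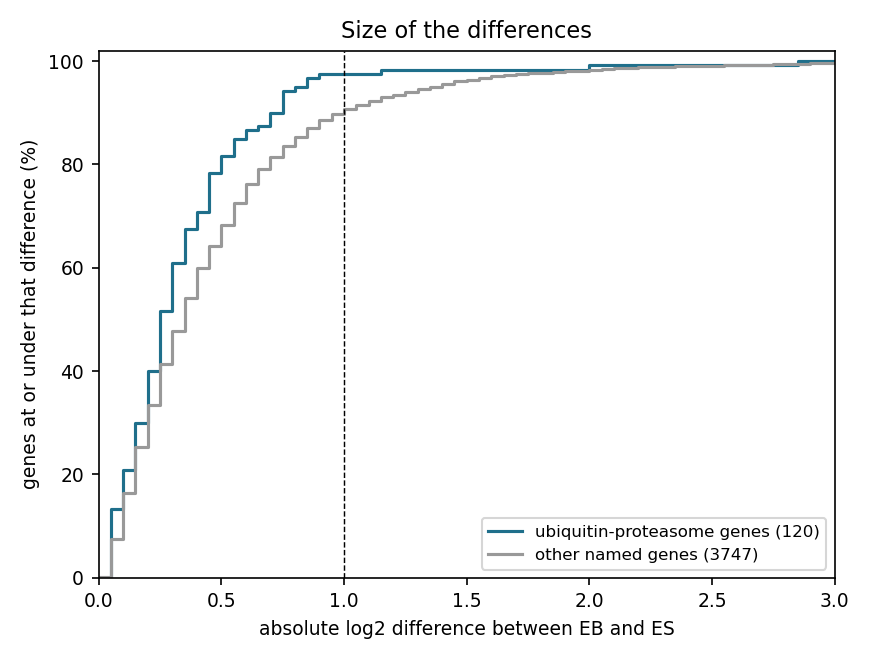
Share of genes, in percent, whose absolute log2 difference between EB and ES is at or under the value on the horizontal axis, for the 120 ubiquitin-proteasome genes and the 3747 other named genes above the floor. The dashed line marks 2-fold, which 97.5% of the first and 90.7% of the second did not reach. The sets were not matched for brightness.

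The proteasome core is built from rings of alpha subunits, which gate the chamber, and beta subunits, some of which carry the active sites. All 25 proteasome-named genes lay above the floor, with a median difference of 0.01. None passed 2-fold, where 3.72% of all named genes were higher and 5.35% lower, which for 25 genes is near the background. There were 15 positive and 10 negative values, against 2139 and 1721 among all 3867 named genes. Among the 4 alpha subunits Psma2 had a signal of 21578 in EB and 23549 in ES (log2 difference of -0.13 ± 0.09), while Psma3 and Psma4 differed by -0.04 and 0.06. These bright alpha subunits were thus nearly level, and the sign of Psma3 turned with a common median scaling. Psma5 had a signal of 236.9 in EB, barely over the floor, and one below it in ES.

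Of the 5 beta subunits 4 had negative differences, against 1721 of all 3867 named genes, with a median of -0.20. So few genes do not show a direction of the class. Psmb10, the immunoproteasome subunit that can replace a constitutive active-site subunit, had a signal of 2352 in EB and 3921 in ES, 1.67-fold lower (log2 difference of -0.74 ± 0.06). It was the only one of the 25 past 1.5-fold, where 12.4% of all named genes were higher and 12% lower. Psmb8, another immunoproteasome subunit, had 230.7 in EB and 230.6 in ES, both at the floor, so a difference was not detectable. The constitutive active-site subunits Psmb5 and Psmb6 differed by -0.20 ± 0.09 and -0.02 ± 0.08, and Psmb3, a structural subunit, by -0.25 ± 0.08. The sign of Psmb6 turned without normalization between the arrays.

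The regulatory particle holds a ring of ATPases, which unfold the target, and non-ATPase subunits, which bind and deubiquitinate it. All 3 measured ATPase genes had positive differences, against 2139 of all 3867 named genes, and 3 genes are too few to show a direction. Psmc3 had 7188 in EB and 5566 in ES (0.37 ± 0.08). Psmc1 had 1443 in EB and 1159 in ES (0.32 ± 0.30), with the widest bead-level error of the 120 genes, and Psmc6 had 266.1 in EB and a signal below the floor in ES. The difference of Psmc1 was thus about the size of its bead error, and that of Psmc6 is known only as a ratio of at least 1.16.

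The non-ATPase subunits centred on 0, with a median of 0.01 over 6 genes, of which 4 were positive, or 3 without normalization. Psmd1 and Psmd2, the large scaffold subunits, differed by -0.03 and 0.03 (the second probe of Psmd2 gave -0.24 ± 0.08), and Psmd3 and Psmd8 of the lid by 0.0031 (turned in sign without normalization) and 0.13. Psmd11, also of the lid, had 274.6 in EB and 315.4 in ES (-0.20 ± 0.13). Psmd9, an assembly chaperone of the regulatory particle rather than a stable subunit, had 397.2 in EB and 277.5 in ES (0.52 ± 0.11), the highest of the 25.

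Among the proteasome partners Psmf1, an inhibitor of the core, had 2220 in EB and 1562 in ES (0.51 ± 0.10). Psme4, an activator cap linked to the turnover of acetylated histones, was on the other side, with 3073 in EB and 4099 in ES (-0.42 ± 0.11). Psme1 and Psme2, which form the interferon-inducible activator, had 5440 in EB against 4713 in ES (0.21 ± 0.09) and 1345 in EB against 1223 in ES (0.14 ± 0.09). The assembly chaperones Psmg1 and Psmg3 differed by 0.01 and 0.16. Psme3ip1, a protein that binds an activator and is named after it, differed by -0.19.

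Promoters of proteasome genes are known to carry antioxidant response elements, through which Nfe2l1 raises the whole set when proteasome capacity falls. The core of such elements, TGACNNNGC, was searched on both strands in the 250 bases before each start in the RefSeq promoter table of GRCm38.p6, in which 146 of the 178 genes had an entry. It was present for 4 of the 16 core and regulatory subunit genes (25%), 25 of the 146 genes (17.1%) and 2098 of 17492 protein-coding genes (12%). The 4 stretches are shown because they carry the same core letters. The log2 difference was 0.52 ± 0.11 for Psmd9, -0.20 ± 0.09 for Psmb5 and -0.02 ± 0.08 for Psmb6, and Psmc6 had a ratio of at least 1.16. Whether the element bears on these values was not tested. The ETS motif CCGGAAGT, searched in the same way, was present for 1 of the 16, for 12 of the 146 (8.22%) and for 4.26% of protein-coding genes. Capitals mark the match to TGACNNNGC.
Psmc6, chr14:45329579-45329623, plus strand: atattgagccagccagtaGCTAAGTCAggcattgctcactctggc
Psmd9, chr5:123228141-123228185, plus strand: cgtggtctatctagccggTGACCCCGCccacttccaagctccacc
Psmb5, chr14:54618016-54618060, minus strand: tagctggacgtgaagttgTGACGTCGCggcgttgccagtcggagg
Psmb6, chr11:70525330-70525356, plus strand: gaggcggactaaagagagTGACGGAGC
In Psmc6 the element lies on the strand opposite to the gene. A match to letters does not show binding. The signal of Nfe2l1 itself was 5142 in EB and 6406 in ES (-0.32 ± 0.09).

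Ubiquitin is made as fusion proteins or chains that are cut into single units. Rps27a differed by 0.02 ± 0.05. Ubb was the brightest probe on both arrays, which makes its normalized difference 0 by construction; before normalization it had 67814 in EB and 66077 in ES. These genes share the ubiquitin coding sequence, and how far their probes cross-react was not tested.

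The 3 activating enzyme genes measured, Uba6, Uba7 and Uba1y, lay below the floor in both arrays, so no difference was detectable for them. The conjugating enzymes hold ubiquitin as a thioester and pass it on. Of the 17 above the floor (of 22), 11 had positive differences, which for so few genes is near the background of 2139 of 3867 named genes. Their median was 0.24, against 0.06 for all named genes. This median was smaller under other filters on dim signals: 0.12 over the genes above 4 times the floor, 0.15 with signals set to the floor and 0.0871 without a detection filter. Above 4 times the floor Ube2o, Ube2q1, Ube2g1 and Ube2v1 were negative, and Ube2f, Ube2l3, Ube2m and Ube2d2a were positive. None passed 2-fold by its brighter probe, where 3.72% of all named genes were higher and 5.35% lower. At 1.5-fold 2 of the 17 were higher, near the 12.4% of all named genes. Ube2n, which builds non-degradative chains in signalling and DNA repair, had 1004 in EB and 604.9 in ES (0.73 ± 0.07). Its partner Ube2v1 had 3342 in EB and 3465 in ES (-0.05 ± 0.06), so the transcripts of this pair of partners did not move alike. Ube2e3 had 1449 in EB and 901.8 in ES (0.68 ± 0.10), while its second probe lay below the floor in both arrays (-0.03).

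Ube2d2a, of the family that serves many different ligases, had 4500 in EB and 3033 in ES (0.57 ± 0.08), and its second probe gave 2545 in EB and 1206 in ES (1.08 ± 0.10), past 2-fold. Members of that family are similar in sequence, so cross-reaction between their probes is possible and was not tested. Ube2d3 differed by 0.29 ± 0.08. Ube2m and Ube2f, which transfer the ubiquitin-like Nedd8 to cullins, differed by 0.52 ± 0.07 and 0.28 ± 0.09, and Ube2l3, a partner of ligases that take ubiquitin onto themselves first, by 0.45 ± 0.07. The lowest of the class was Ube2o, a large enzyme that also acts as a ligase on unassembled proteins, with 4112 in EB and 5546 in ES (-0.43 ± 0.06). Ube2g1, an enzyme of degradation at the endoplasmic reticulum, differed by -0.19 by the brighter probe and by -0.16 by the second.

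Of the 22 deubiquitinase genes above the floor (of 35), 14 had negative differences, against 1721 of 3867 for all named genes. Their median was -0.13, against 0.06 for all named genes. The median was -0.0556 without a detection filter. It was -0.32 over the few genes above 4 times the floor, which were Uchl5, Usp10, Usp1, Otud5, Usp39 and Usp47. None passed 2-fold, where 3.72% of all named genes were higher and 5.35% lower. By normalized signal 4 of the 22 were at least 1.5-fold lower (against 12% of all named genes) and 1 at least 1.5-fold higher (against 12.4%). For so few genes these counts are near the background. Usp48 had 441.8 in EB and 790.8 in ES, 1.79-fold lower (-0.84 ± 0.08), while its second probe lay below the floor in both arrays. The others past 1.5-fold on the lower side were Otud3, with 387.5 in EB and 672.0 in ES (-0.79 ± 0.09), Usp45, which was below the floor in EB and so has a ratio of at least 1.43 only, and Uchl5. Uchl5, which trims chains at the regulatory particle, had 2506 in EB and 3896 in ES (-0.64 ± 0.07).

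Usp13 was the one on the higher side, but its signal of 247.2 in EB was just over the floor and its ES signal lay below, which gives a ratio of at least 1.07. Usp9x, which protects several signalling proteins from degradation, had 258.2 in EB and 298.2 in ES (-0.21 ± 0.09), close to the floor. A second Usp9x probe gave -0.52 with an EB signal below the floor. Usp1, a deubiquitinase of DNA crosslink repair, was lower by both probes above the floor (-0.34 and -0.33). Usp6nl meets the symbol rule but encodes a GTPase-activating protein and no deubiquitinase; it differed by 0.17.

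**Figure D3:**
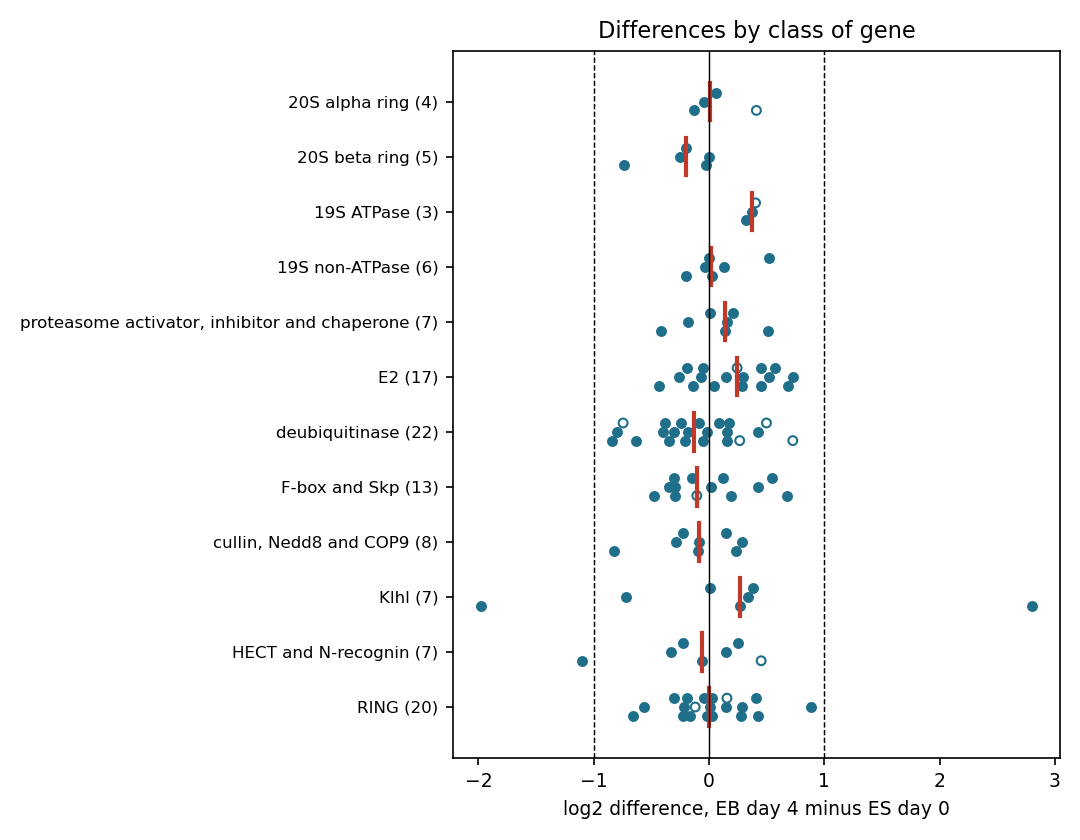
Log2 difference, EB day 4 minus ES day 0, of 119 of the 120 genes above the floor, by class (number of genes in brackets). Filled points were above the floor in both arrays and open points in 1, vertical red bars are class medians, and dashed lines mark 2-fold. Of 17 conjugating enzymes (E2, median 0.24) 11 lie right of 0, and of 22 deubiquitinases (median -0.13) 14 lie left of it. Among all 3867 named genes 2139 were positive and 1721 negative.

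Cullins are scaffolds that join a conjugating enzyme to adaptors which hold the target. Cul4b had 2510 in EB and 4441 in ES, 1.77-fold lower (-0.82 ± 0.06). Its paralog Cul4a had 322.7 in EB and 264.8 in ES (0.29 ± 0.10), both near the floor, and Cul3, the scaffold of the Klhl adaptors, had 4701 in EB and 5023 in ES (-0.10 ± 0.07). The COP9 signalosome, which removes Nedd8 from cullins, had 5 genes measured, all within 1.5-fold: Cops6 (-0.28), Cops7a (-0.23), Cops2 (-0.08), Cops7b (0.14) and Cops4 (0.23). The paralogs Cops7a and Cops7b lay on opposite sides of 0, and the second probe of Cops7b gave 0.15.

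F-box proteins are the target-binding parts of Skp1-cullin ligases. Of 25 F-box and Skp genes 13 lay above the floor, with a median of -0.11. None passed 2-fold, where 3.72% of all named genes were higher and 5.35% lower. Fbxo16 was highest, with 472.4 in EB and 296.0 in ES (0.67 ± 0.12), and Fbxo42 lowest, with 703.0 in EB and 979.8 in ES (-0.48 ± 0.10). Fbxw7, which marks cyclin E and Myc for degradation, had 850.6 in EB and 1041 in ES (-0.29 ± 0.07). Skp2, which marks inhibitors of cyclin-dependent kinases, had 1306 in EB and 1145 in ES (0.19 ± 0.10), and its second probe gave 0.50 ± 0.11.

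The largest differences lay among the Klhl genes, whose kelch-repeat proteins serve as adaptors of Cul3, with 7 of 13 above the floor. Klhl6, known as a ligase adaptor of B lymphocytes, had a signal of 1815 in EB and 260.2 in ES, 6.98-fold higher (2.80 ± 0.08). Its ES signal was just over the floor, and its second probe lay below the floor in both arrays and differed by -0.0047, so the difference rests on 1 probe. The bases before the start of Klhl6 in the RefSeq promoter table are printed because, taking the brighter probe of each gene, Klhl6 alone reached 2-fold on the higher side. The GATAAG motif of GATA factors, in capitals, occurs 2 times in them. It was found on either strand in the same window for 12 of the 146 genes (8.22%) and for 7.32% of protein-coding genes.
Klhl6, chr16:19983050-19983299, GRCm38.p6, minus strand: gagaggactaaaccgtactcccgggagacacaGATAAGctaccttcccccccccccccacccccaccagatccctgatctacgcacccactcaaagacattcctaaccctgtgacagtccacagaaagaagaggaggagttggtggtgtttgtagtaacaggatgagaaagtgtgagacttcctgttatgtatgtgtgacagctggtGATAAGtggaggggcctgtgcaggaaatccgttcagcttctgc
The match is a description of the letters and does not show that a GATA factor binds there.

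Klhl13, an adaptor with which Cul3 removes Aurora B from mitotic chromosomes, had 256.5 in EB and 1012 in ES, 3.95-fold lower (-1.98 ± 0.11). Its EB signal lay just over the floor. Klhl9, the partner of Klhl13 in that ligase, had 319.8 in EB and 265.9 in ES (0.27 ± 0.12), both near the floor. By 1 probe each, the differences of these partners had opposite signs. Klhl22 was 1.65-fold lower by its brighter probe (908.3 in EB and 1495 in ES, -0.72 ± 0.10), but its second probe, with 279.9 in EB and 241.6 in ES, gave 0.21 ± 0.17. Klhl25, Klhl17 and Klhl15 differed by 0.0042, 0.34 and 0.38, and the first of these turned in sign without normalization.

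Ligases of the HECT type, which carry ubiquitin on their own active site, and the N-recognins, which read the first residue of a protein, had 7 of 9 genes above the floor. Nedd4l, a HECT ligase best known for removing the epithelial sodium channel from the membrane, had 574.1 in EB and 1231 in ES, 2.14-fold lower (-1.10 ± 0.09). Herc3 was highest of the class, with 292.0 in EB and a signal below the floor in ES, a ratio of at least 1.27. The N-recognins Ubr4, Ubr2 and Ubr1 differed by -0.33, 0.14 and 0.25, without a common direction.

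The RING ligases, many of which bring the loaded conjugating enzyme to the target, were the most numerous by symbol. Of their 36 genes, 20 lay above the floor. Of these 10 were positive and 10 negative, with a median of -0.0038, but 7 were positive and 13 negative without normalization, where Rnf111, Rnf139 and Rnf141 turned in sign. Rnf103, a ligase of the endoplasmic reticulum membrane, had 957.9 in EB and 519.4 in ES, 1.84-fold higher (0.88 ± 0.10), just short of 2-fold. Rnf31, the catalytic subunit of the complex that makes linear ubiquitin chains, had 458.8 in EB and 723.3 in ES, 1.58-fold lower (-0.66 ± 0.08). The remaining 18 stayed under 1.5-fold, from Rnf181 (-0.56) to Rnf11 (0.43).

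**Figure D4:**
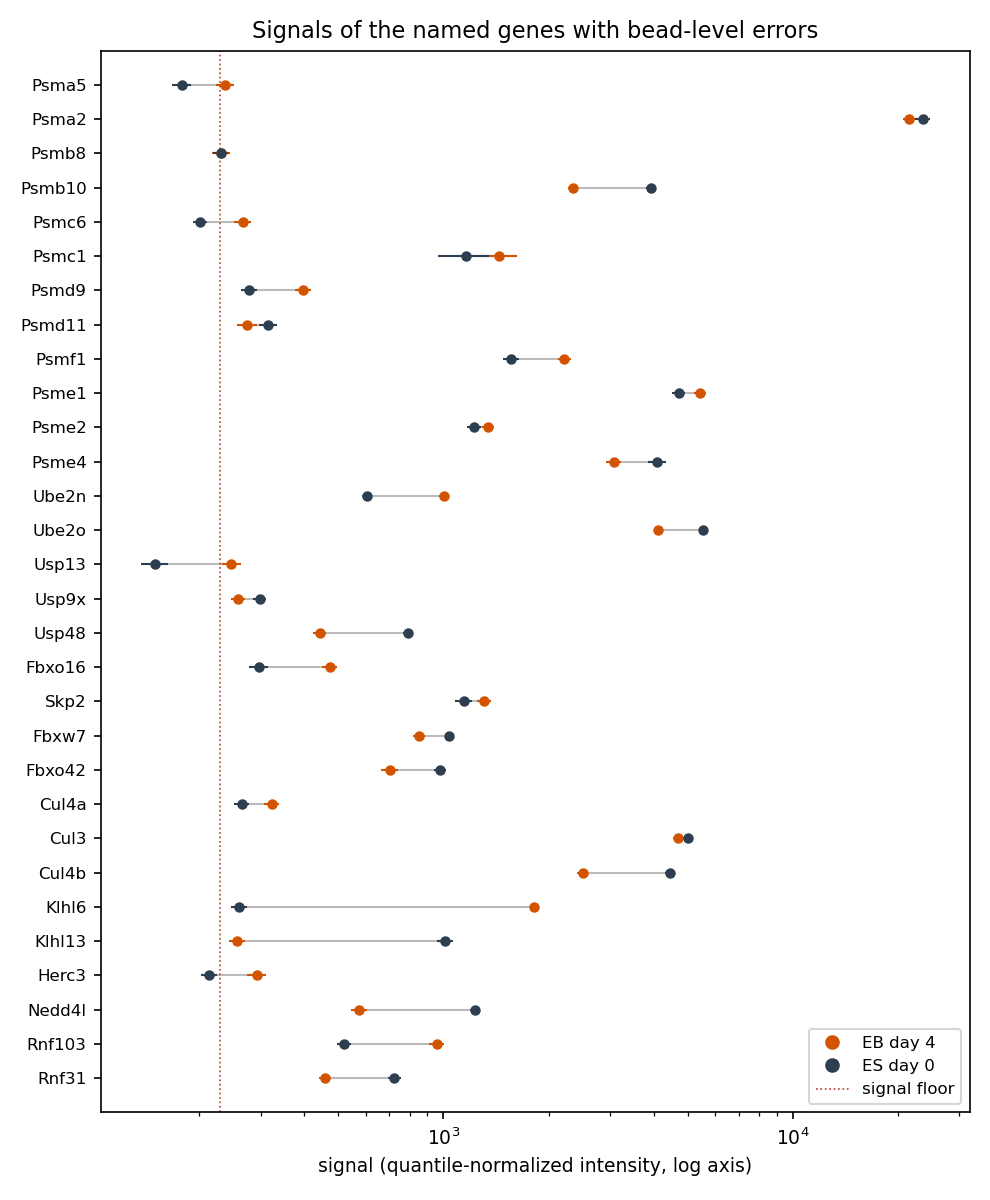
Signal, as quantile-normalized intensity on a log axis, of 30 genes in EB day 4 (orange) and ES day 0 (dark blue), grouped by class from proteasome subunits at the top to RING ligases at the bottom. Horizontal bars are bead-level standard errors, and the dotted line is the signal floor. The pairs of points are widest apart for Klhl6 and Klhl13, each with 1 signal near the floor.

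Each value was also set against other probes of its gene. Of the 178 genes 44 had several probes, and for 17 of these the brighter and a second probe were both above the floor in at least 1 array. Both probes had the same sign for 13 of the 17. Over these genes the value of the second probe minus that of the first had an SD of 0.32 (log2). The differences between EB and ES over the 120 genes had an SD of 0.49. In median absolute size the probe disagreement was 0.235 and the difference between EB and ES 0.247. The median bead-level error was 0.09. Bead-level errors thus do not cover the disagreement between probes. Among the 17, Klhl22 showed the widest disagreement (0.93), and Ube2d2a the next (0.51). Genes whose second probe lay below the floor in both arrays are left out, among them Klhl6, whose probes gave 2.80 and -0.0047.

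**Figure D5:**
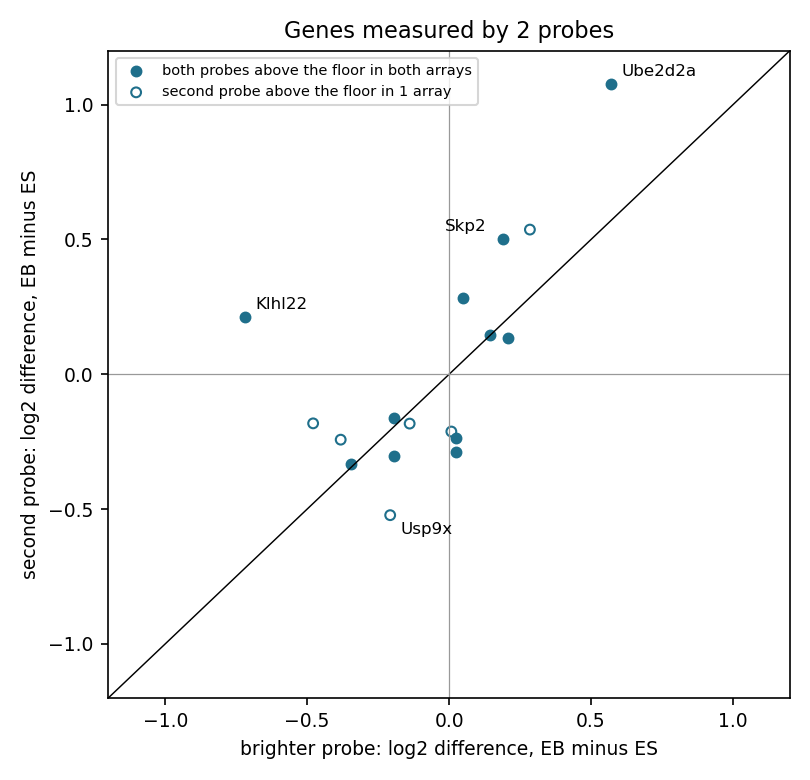
Log2 difference, EB minus ES, of the brighter probe (horizontal) and a second probe (vertical) for the 17 genes with 2 probes above the floor. Points on the diagonal line would have equal differences; Klhl22 lies in the upper left, with opposite signs, and Ube2d2a above the line in the upper right.

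Pathway genes outside the symbol rule were also looked at. Of 72 such genes listed, 41 were named on the array and 31 lay above the floor, of which 21 had positive and 9 negative differences with a median of 0.15, against 0.0017 for the 120 genes and 0.06 for all named genes. None passed 2-fold (against 3.72% of all named genes higher and 5.35% lower). At 1.5-fold 2 were higher (against 12.4% of all named genes) and 1 lower (against 12%). One of the higher ones was Cblb, a ligase that dampens receptor signalling, with 502.6 in EB and 307.0 in ES (0.71 ± 0.12). The lower one was Trip12, a HECT ligase, with 5131 in EB and 9417 in ES (-0.88 ± 0.06). Vcp, the ATPase that pulls ubiquitinated proteins out of complexes and membranes, had 15422 in EB and 10757 in ES (0.52 ± 0.07), and Sqstm1, an autophagy receptor for ubiquitinated cargo, differed by 0.18 ± 0.08. Cblb and Trip12 are named for passing the 1.5-fold limit, which the naming rule did not include.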

How the data were processed

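The sample files hold, per the file headers, the signal intensity of each probe as BeadStudio 2.3.41 wrote it, with normalization set to none, for 46643 probes, although the sample titles call the data normalised. The submitters' processing notes also name RMA and limma, without their use. The deposited detection score is in the EB file alone. The deposited bead spread fell with bead number (slopes on log scales of -0.47 in EB and -0.44 in ES) and was read as a standard error. The authors' series value table holds linear intensity, with a median of 16.7 in both arrays, of unstated scaling and background treatment.

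Intensities were quantile normalized and put on the log2 scale (Python 3.11.15, numpy 2.4.6), without background subtraction; the calculation was tested on simulated data. The floor of 230.0 is the lowest normalized EB signal with a score above 0.99, used for both arrays. Ratios with the dimmer signal under it are given as "at least", against the floor. Where a target identifier holds a zero-padded number of at least 10000, it was taken as an NCBI Gene number; 9796 of 11857 such probes (82.6%) matched the RefSeq table of GRCm38.p6, used for names. The probes' genome build is not stated in these sources, and how many of the unnamed probes belong to this gene set is unknown. Of several probes, that with the highest mean log2 signal stands for the gene.

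Named are genes past 2-fold, the highest and lowest of each class, the 2 highest and lowest proteasome genes and a preset group; all others were chosen after their values were seen. Psmb9, Uchl1, Fbxo15, Usp7, Uba1 and Usp44 of that group were not among the named probes and are not analysed here, and single values of a few genes are not reported here. The members, lists and limits were chosen with earlier results of these data known. Alternatives included limma 3.58.1 normexp correction (offset 50, R 4.3.3).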

Additional observations from a re-analysis of the deposited data

How the results depend on the processing

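No paired analysis was possible because there is a single array for EB and for ES, and neither could be left out. The counts at 2-fold, 1 higher and 2 lower, did not change without normalization, with a common median, with the mean over all probes, with detection in both samples, with no or a looser detection filter, with signals set to the floor or with a limit of 3 bead-level standard errors. With normexp background 2 were higher, the second being Usp13 (1.08). The series value table, which stretches low signals, gave 9 higher and 5 lower, and moved the class medians of conjugating enzymes to 0.44, Klhl genes to 0.72 and deubiquitinases to -0.26. A 1.5-fold limit gave 6 and 10. Without a detection filter the medians were 0.0225 for Klhl genes, 0.0871 for conjugating enzymes and -0.0556 for deubiquitinases, and with signals set to the floor 0.15 for conjugating enzymes. The filter at 4 times the floor, which like the looser detection was added with the data in view, drops Klhl6, Klhl13 and Nedd4l. Among the genes it keeps, 0 were higher and 0 lower. The medians, each over few genes, were 0.12 for conjugating enzymes, -0.32 for deubiquitinases and -0.19 for RING ligases. The cause of these shifts was not tested. The median over all members lay between -0.0901 and 0.0022. The sign of 9 genes turned without normalization or with a common median, all with main differences of at most 0.04 in size: Fbxl5, Klhl25, Psma3, Psmb6, Psmb8, Psmd3, Rnf111, Rnf139 and Rnf141. The floor limits what dim probes can show, and the number of arrays limits the precision.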
